A study of Mus musculus with 4 samples.

Results

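The genes described here were 9 matrix proteases and inhibitors, out of 30406 genes listed for all 4 libraries of the study. They were 4 matrix metalloproteinases (Mmp2, Mmp3, Mmp14 and Mmp19), 2 ADAMTS proteases (Adamts1 and Adamts5) and 3 tissue inhibitors of metalloproteinases (Timp1, Timp2 and Timp3). They were matched by gene symbol, and all 9 were found in each library.

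Matrix metalloproteinases are zinc enzymes that cut collagens, proteoglycans and other matrix proteins, and most are secreted as inactive precursors. ADAMTS proteases are their secreted relatives and cut proteoglycans such as aggrecan and versican. Tissue inhibitors of metalloproteinases bind the active site of matrix metalloproteinases, and Timp3 also blocks ADAMTS proteases. Matrix turnover in vessel walls and joints is therefore commonly described as a balance between proteases and inhibitors. In inflammatory arthritis, stromal cells are known for making Mmp3 and Timp1.

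The study dissected the popliteal lymphatic vessels (PLVs) and the superficial saphenous vein (SSV) of mouse hindlegs and counted mRNA molecules in single cells by droplet capture. Each library pooled the vessels of 3 mice, and the methods place all mice on a C57BL/6J background. The WT library (labelled C57BL6) came from males, and the TNF-Tg library from males of a line that carries a human TNF transgene and develops inflammatory arthritis. The labels give both as 9 months old, and give no age for the tdT mice. For the tdT mice the methods state only a lower age limit, just under 9 months. Live cells (DAPI-) with high forward scatter, high side scatter or both were sorted for these libraries, with no surface marker and no reporter.

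The tdT1 and tdT2 libraries came from male and female Cspg4-Cre;tdTomato mice with the Ai9 reporter and without the TNF transgene, sorted for tdT+ cells, which the Cspg4 promoter marks in mural and some other cells. The tdT1 library was sorted through another nozzle and sequenced on another instrument than the rest. The human transgene is not among the listed genes, so the genotype could not be checked. WT and TNF-Tg were 1 library each, made on separate days, so genotype and batch cannot be told apart and no test between them was possible.

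The values are unique molecular identifiers (UMIs), each standing for 1 captured mRNA molecule, and the method reads only the 3′ end, so levels do not depend on gene length. The libraries held between 454 and 5488 cells and between 2357031 and 68773605 UMIs. The median depth per cell ran from 4932.5 UMIs in tdT2 to 12660 in WT. In tdT1, 516 of the 1504 cells had over 10% mitochondrial UMIs. In all, 11 cell barcodes occurred in more than 1 library.

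Cells were placed in gates by marker genes, none of them among the 9. The LMC and VSMC gates took cells with stromal collagen genes and carry the names that the study gave to lymphatic and vascular smooth muscle cells. The LMC gate rested on Myoc, Pi16, Fndc1, Anxa3, Dpp4 and Col14a1. The VSMC gate rested on Cxcl14, Mgp, Gdf10, Gas6, Igfbp7 and Inmt. The LMC gate held 736 tdT1, 92 tdT2, 1418 WT and 511 TNF-Tg cells. The VSMC gate held 237, 125, 723 and 548 cells of the same libraries.

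The contractile smooth muscle markers went against these names. A list of 7 contractile genes (Acta2, Myh11, Tagln, Cnn1, Des, Myl9 and Lmod1) summed to 18.0 to 48.5 counts per 1000000 UMIs (CPM) in the LMC gate and 9.03 to 35.2 CPM in the VSMC gate. Myh11, the smooth muscle myosin, had no UMI in the LMC gate of WT or TNF-Tg. A list of 5 fibroblast genes (Pdgfra, Dpt, Fbln2, Fap and Pdgfrb) summed to 2135 to 4143 CPM in the LMC gate and 1367 to 2833 CPM in the VSMC gate. The study, however, names Pdgfrb a smooth muscle and pericyte marker and cites it, with Cald1 and Tpm1, for smooth muscle identity. A list of 5 pericyte genes (Rgs5, Cspg4, Mcam, Kcnj8 and Abcc9) summed to 32.9 to 89.9 CPM in the LMC gate. In the VSMC gate that list summed to 83.6 to 135 CPM. The gate names below therefore stand for the marker rule and not for a contractile cell.

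Sequence around the start site is shown for the pair of members that were 2-fold or more higher in TNF-Tg than in WT in both stromal gates. Adamts1 was also higher there, but by less than 2-fold in the VSMC gate. Capitals mark the AP-1 element, which Jun and Fos proteins bind, in Mmp3 and a related form in Timp1. The element was searched as TGACTCA and, for the other strand, as TGAGTCA. The related form, 1 letter off, was chosen with the members known, so its match in Timp1 is no independent result. It was searched as TGAGTAA and, for the other strand, as TTACTCA, and other forms 1 letter off were not searched. Of 32851 RefSeq promoters of 300 bases (250 before and 50 after the start), 5.20% hold the AP-1 element and 2.68% the other form on either strand. The 250 bases before Mmp3 (GRCm38.p6, chr9:7445572-7445821, plus strand) hold the AP-1 element with its first base at position −46. For Timp1, 30 bases around the form that is 1 letter off (chrX:20870181-20870210, plus strand) hold it with its first base at position 27 after the start.
Mmp3: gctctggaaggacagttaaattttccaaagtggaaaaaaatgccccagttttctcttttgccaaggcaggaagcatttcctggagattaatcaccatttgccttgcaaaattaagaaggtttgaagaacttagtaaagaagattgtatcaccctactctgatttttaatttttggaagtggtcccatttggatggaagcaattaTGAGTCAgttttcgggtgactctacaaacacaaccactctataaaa
Timp1: cggtgggtggaTGAGTAAtgcgtccaggaa
Of the 9 members, 6 were matched in the promoter table (all but Mmp2, Mmp19 and Adamts5), and neither form was in the windows of Mmp14, Adamts1, Timp2 or Timp3. A match is a run of letters and not a measured binding site, and its absence says only that these letters are not in the window.

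Mmp3, known as stromelysin and able to cut many matrix proteins and activate other metalloproteinases, had the largest ratio of TNF-Tg to WT among the 6 member proteases in both stromal gates. The gene (ENSMUSG00000043613) lies on chromosome 9 at 7445822 to 7455975. In the LMC gate its level was 98.2 CPM in tdT1, 219.9 in tdT2, 139 for WT and 634 for TNF-Tg. Mmp3 levels in the VSMC gate were 615, 747, 637 and 1948 CPM in the same order. The TNF-Tg library was the highest of the 4 in both gates, while the other 3 lay close together in the VSMC gate (666 ± 71.0 CPM, SD, n = 3 libraries).

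TNF-Tg was 4.56-fold above WT in the LMC gate (log2 2.19, 95% counting interval 2.12 to 2.26). In the VSMC gate it was 3.06-fold above WT (log2 1.61, interval 1.56 to 1.66). These intervals cover counting error only, not differences between mice or preparations. More RNA per cell and more cells with the gene both raise such a sum, and the shares of cells given further on separate them in part.

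Timp1, a secreted inhibitor of most metalloproteinases, showed a larger difference than any other member in these gates. It is ENSMUSG00000001131, on chromosome X at 20870166 to 20874735. Timp1 in the LMC gate stood at 5.38 CPM in tdT1, 28.0 in tdT2, 19.7 for WT and 348 for TNF-Tg. Its VSMC gate levels were 35.3, 52.9, 178 and 882 CPM. TNF-Tg was 17.7-fold above WT in the LMC gate (log2 4.14, interval 3.998 to 4.29) and 4.95-fold above WT in the VSMC gate (log2 2.31, interval 2.22 to 2.39). A list of 4 haemoglobin genes was also higher in TNF-Tg in the LMC gate (10.2 CPM in WT and 620 in TNF-Tg) but not in the VSMC gate (11.1 and 10.8 CPM). It went the other way in the resident macrophage gate (916 and 19.3 CPM). The part of red cell RNA in the Timp1 levels was not tested.

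The WT library already held more Timp1 in the VSMC gate than either tdT library. Those 3 libraries without the transgene averaged 88.8 ± 77.9 CPM (SD, n = 3), so their own spread was wide. TNF-Tg was 12.4-fold above the highest of the 3 in the LMC gate and 4.95-fold above it in the VSMC gate. For Mmp3 the same comparison gave 2.88-fold and 2.61-fold.

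**Figure D1:**
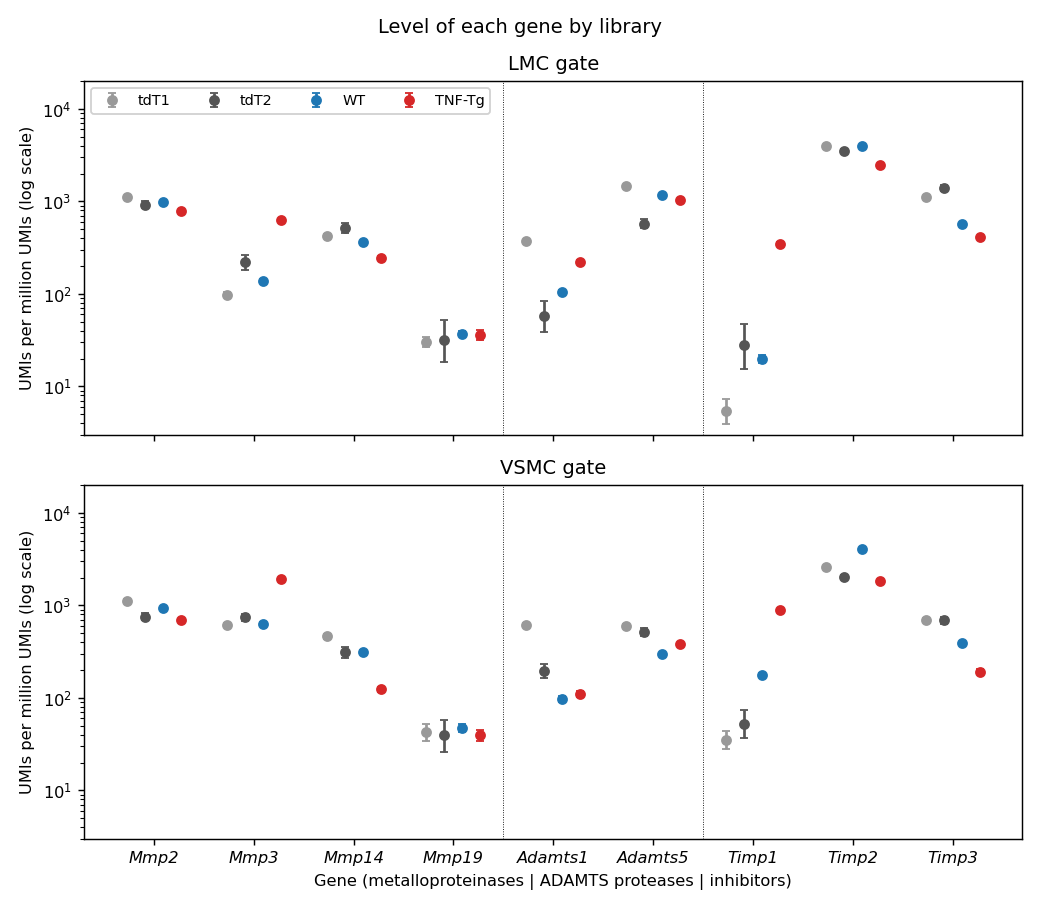
Level of each of the 9 genes in CPM (log axis) in the LMC gate (top) and VSMC gate (bottom), 1 point per library with its 95% Poisson interval. Mmp3 and Timp1 were highest in TNF-Tg in both gates, at 634 and 348 CPM in the LMC gate and 1948 and 882 CPM in the VSMC gate.

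Mmp14, the membrane-anchored metalloproteinase that activates the Mmp2 precursor, was lower in TNF-Tg. It is ENSMUSG00000000957, on chromosome 14 at 54431612 to 54445364. The LMC gate held 425 CPM in tdT1, 516 in tdT2, 364 for WT and 244 for TNF-Tg. Mmp14 in the VSMC gate stood at 463, 311, 315 and 123 CPM. TNF-Tg was the lowest library in both gates, with a log2 ratio to WT of −0.58 (−0.65 to −0.50) in the LMC gate and −1.35 (−1.47 to −1.23) in the VSMC gate.

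Mmp2, a gelatinase whose precursor Mmp14 and Timp2 together activate, differed less. It is ENSMUSG00000031740, on chromosome 8 at 92827291 to 92853420. Its levels in the LMC gate were 1109.7 CPM in tdT1, 921 in tdT2, 977 for WT and 790.0 for TNF-Tg, and in the VSMC gate 1121, 752, 927 and 696 CPM. The log2 ratios of TNF-Tg to WT were −0.31 and −0.41.

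Mmp19 (ENSMUSG00000025355, chromosome 10 at 128790910 to 128800824), a metalloproteinase made by several cell types, was at a low and even level in the stroma. It lay between 30.2 and 37.1 CPM in the LMC gate and between 39.4 and 47.2 CPM in the VSMC gate over all 4 libraries. Its log2 ratio of TNF-Tg to WT was −0.04 (interval −0.25 to 0.16) in the LMC gate and −0.26 (−0.50 to −0.02) in the VSMC gate.

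Adamts1 and Adamts5, both able to cut aggrecan and versican, lie near each other on the minus strand of chromosome 16. Adamts1 (ENSMUSG00000022893) spans 85793827 to 85803113, and Adamts5 (ENSMUSG00000022894) spans 85856173 to 85901828. Adamts1 was 371 CPM in tdT1, 58.0 in tdT2, 106 for WT and 224 for TNF-Tg in the LMC gate, and 620 (tdT1), 195 (tdT2), 97.4 (WT) and 111 (TNF-Tg) CPM in the VSMC gate. The log2 ratio of TNF-Tg to WT was 1.08 (0.99 to 1.17) in the LMC gate and 0.18 (0.03 to 0.34) in the VSMC gate.

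Adamts1 was highest in tdT1, not in TNF-Tg. A list of 13 immediate-early and heat-shock genes known to rise during tissue digestion was also highest in tdT1, at 20239 CPM in its LMC gate and 27292 CPM in its VSMC gate. The other libraries held 3496 to 4470 CPM and 4266 to 7661 CPM of that list. Its part in the Adamts1 levels was not tested. Between WT and TNF-Tg the list moved the other way, with 4470 CPM in WT and 3496 in TNF-Tg in the LMC gate.

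Adamts5 was 1462 CPM in tdT1, 576 in tdT2, 1187 for WT and 1025 for TNF-Tg in the LMC gate. Its VSMC gate values were 601, 517, 297 and 379 CPM. TNF-Tg lay within the range of the other libraries in both gates. The log2 ratios to WT were −0.21 (−0.25 to −0.17) in the LMC gate and 0.35 (0.26 to 0.43) in the VSMC gate.

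Timp2, which both inhibits metalloproteinases and takes part in activating Mmp2, was the most abundant member in both stromal gates of every library except the VSMC gate of TNF-Tg, where Mmp3 was higher. It is ENSMUSG00000017466, on chromosome 11 at 118301069 to 118355740. It stood at 3948 CPM in tdT1, 3544 in tdT2, 4009 for WT and 2465 for TNF-Tg in the LMC gate, and at 2578, 2014, 4062 and 1815 CPM in the VSMC gate. The log2 ratio of TNF-Tg to WT was −0.70 (−0.73 to −0.68) in the LMC gate and −1.16 (−1.19 to −1.13) in the VSMC gate. TNF-Tg was the lowest library in both gates, though tdT2 was close to it in the VSMC gate.

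Timp3, the inhibitor that binds to the matrix and also blocks ADAMTS proteases, was lower in TNF-Tg as well. It is ENSMUSG00000020044, on chromosome 10 at 86300372 to 86349506. Its levels were 1129 CPM in tdT1, 1381 in tdT2, 564 for WT and 410.3 for TNF-Tg in the LMC gate, and 696, 693, 389 and 193 CPM in the VSMC gate. The log2 ratio of TNF-Tg to WT was −0.46 (−0.52 to −0.40) and −1.01 (−1.11 to −0.91) in the same order. Both libraries without tdT sorting were below both tdT libraries in each gate.

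With no test possible between WT and TNF-Tg, a ratio of 2-fold or more was counted as a call among genes with at least 50 UMIs over both libraries. In the LMC gate, 3 of 9 members (Mmp3, Adamts1 and Timp1) were higher in TNF-Tg and 0 were lower. Of all 11087 genes, 3.2% were higher and 4.96% lower by that rule. The study had already named these 3 genes among the top genes raised in TNF-Tg LMCs, from the same libraries. The count is therefore a description and no independent result. The same holds for Mmp3 and Timp1 in the stromal counts that follow. The median log2 ratio was −0.21 over the members and −0.03 over all genes.

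By the same rule, 2 members of the VSMC gate (Mmp3 and Timp1) were higher and 3 (Mmp14, Timp2 and Timp3) were lower. Of all 10005 genes there, 3.08% were higher and 9.35% lower. The median log2 ratio was −0.26 over the members and −0.18 over all genes, so part of each negative ratio in this gate was shared by the whole table. With TMM scaling, which sets that shift near 0, 1 member remained below 2-fold: Mmp14 at a log2 ratio of −1.18. Timp3 then stood at −0.84, and Timp2 lay only just inside the 2-fold line.

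A stricter count asked for TNF-Tg to be 2-fold outside all 3 libraries without the transgene. Mmp3 and Timp1 passed on the high side in both gates, where 1.55% of 11440 genes did so in the LMC gate and 1.3% of 10430 in the VSMC gate. On the low side, 0 members passed in the LMC gate (1.39% of genes), and 2 members, Mmp14 and Timp3, passed in the VSMC gate (4.09% of genes). Timp3 was close to the line there, with 193 CPM against a lowest value of 389 CPM. These other libraries differ from TNF-Tg in sort or in day as well as in genotype.

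**Figure D2:**
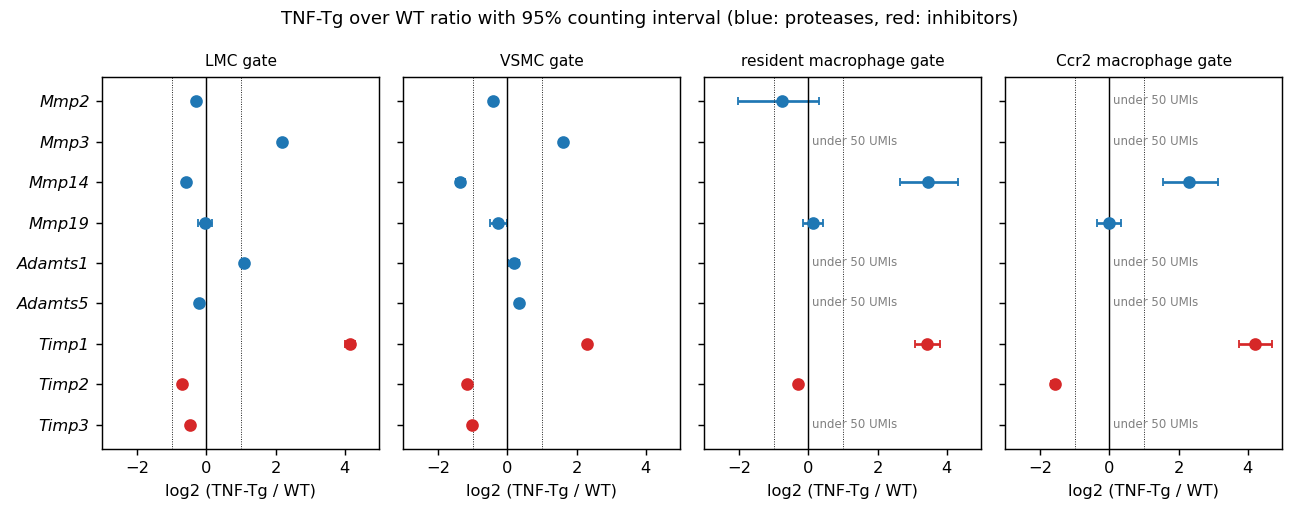
Log2 ratio of TNF-Tg to WT for each gene in 4 gates, with 95% counting intervals and dotted lines at 2-fold. Blue points are proteases and red points inhibitors, and genes with under 50 UMIs over both libraries are marked as such. Timp1 was past 2-fold in the LMC, VSMC and resident macrophage gates, at log2 2.31 to 4.14. Its value in the Ccr2 macrophage gate (log2 4.20), like those of Mmp14 in both macrophage gates, passed the minimum of 50 UMIs only through TNF-Tg.

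Prg4, the lubricin gene known from the synovial lining and superficial cartilage, was higher in TNF-Tg than in WT, as Mmp3 and Timp1 were. Its level in the LMC gate was 11.4 CPM in tdT1, 11.99 in tdT2, 194 for WT and 882 for TNF-Tg, and in the VSMC gate 24.2, 29.4, 204 and 634 CPM. Over the libraries without the transgene, Prg4 was higher in WT than in both tdT libraries in each gate. Mmp3 was not higher in WT than in tdT2 in either gate. Timp1 was higher in WT than in both tdT libraries in the VSMC gate (178 CPM against 35.3 and 52.9). In the LMC gate Timp1 was lower in WT than in tdT2 (19.7 against 28.0 CPM). Of a list of 5 lining genes, Prg4 alone exceeded 10 CPM in these gates. A Prg4 UMI was present in 48.8% of WT and 65.9% of TNF-Tg cells of the LMC gate, and in 36.8% and 70.1% of the VSMC gate. It was present in 0 of 344 and 1 of 219 neutrophils of WT and TNF-Tg.

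When cells with a Prg4 UMI were left out, Mmp3 and Timp1 stayed past 2-fold in both gates. Mmp3 was then 113 CPM in WT and 351 in TNF-Tg in the LMC gate (log2 1.64), and 625 and 1550.2 CPM in the VSMC gate (log2 1.31). Timp1 was 19.8 and 76.8 CPM in the LMC gate (log2 1.95), against 19.7 and 348 CPM with all cells. Much of the Timp1 difference in the LMC gate thus lay in cells with a Prg4 UMI. Without them, Timp1 was 199 and 670 CPM in the VSMC gate (log2 1.75). In the VSMC gate, however, Mmp3 in TNF-Tg was then less than 2-fold above tdT2 (791 CPM). Other members went under 2-fold: Adamts1 in the LMC gate went from log2 1.08 to −0.24, and in the VSMC gate Mmp14 went to −0.76, Timp2 to −0.99 and Timp3 to −0.49.

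Shares of cells with a UMI were compared after every cell was thinned to 3000 UMIs, which left out between 7 and 235 cells per library in the LMC gate and between 26 and 119 in the VSMC gate. Mmp3 was found in 10.98% of tdT1, 29.4% of tdT2, 19.1% of WT and 42.1% of TNF-Tg cells of the LMC gate. The VSMC gate shares were 46.0, 62.6, 43.2 and 82.7%. The exact binomial 95% intervals were 37.7 to 46.5% and 79.0 to 86.0% for TNF-Tg and 17.1 to 21.3% and 39.2 to 47.3% for WT. They take the cells of a library as units and leave out differences between mice or preparations, so they are no test between the conditions. Without thinning, WT and TNF-Tg had 35.5 and 60.5% in the LMC gate and 54.4 and 89.2% in the VSMC gate.

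Timp1 was found in 0.798% of tdT1, 4.41% of tdT2, 5.35% of WT and 39.5% of TNF-Tg cells of the LMC gate at that depth. Its VSMC gate shares were 7.98, 14.1, 37.4 and 72.7% (tdT1, tdT2, WT, TNF-Tg). Unthinned, WT and TNF-Tg had 21.9 and 59.7% in the LMC gate and 62.2 and 85.6% in the VSMC gate. In neutrophils, which served as a background for free RNA, thinned cells had Timp1 in 0 of 235 (WT) and 0 of 116 (TNF-Tg), which allows shares of up to 1.28% and 2.59%. Mmp3 was found in 1.28 and 1.72% of the same neutrophils, whose median depth was 3545 and 3134 UMIs, against 16172.5 and 12333 in the LMC gate. In T cells the Mmp3 shares were 0 of 63 cells in WT and 6.76% in TNF-Tg.

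Molecules of Mmp3 were spread unevenly over cells. In the LMC gate of WT, the top 10% of cells by Mmp3 held 78.0% of its thinned UMIs, and in TNF-Tg 58.5%. Cells with 5 or more Mmp3 UMIs made up 1.88% of WT and 12.5% of TNF-Tg cells there, and 12.7 and 43.2% in the VSMC gate. Adamts5 was more even, with 25.7% and 27.7% of its UMIs in the top 10% of LMC-gate cells and a median of 3 UMIs per cell in WT and in TNF-Tg.

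Mmp3 and Timp1 were counted together in the same cells. In the LMC gate, 115 of 504 thinned TNF-Tg cells had both, which is 54.2% of the cells with Mmp3 and 57.8% of those with Timp1. Timp1 was found in 39.5% of all TNF-Tg cells there. In WT 10 of 1382 cells had both, 3.79% and 13.5% of the same cells. In the VSMC gate both were present in 290 of 468 TNF-Tg cells and in 90 of 604 WT cells. The share of Mmp3 cells with Timp1 was there 74.9% in TNF-Tg, against 72.7% of all cells, and 34.5% in WT, against 37.4% of all cells. All cells include the cells with Mmp3, which were 82.7% of TNF-Tg and 43.2% of WT cells in that gate. The comparison therefore understates any difference from cells without Mmp3, which was not tested.

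**Figure D3:**
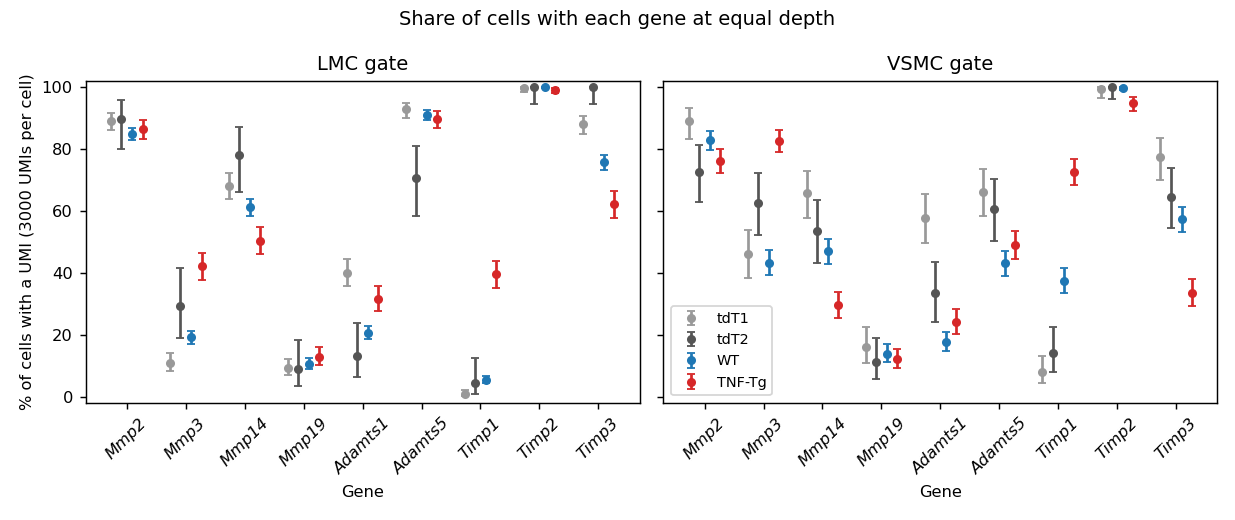
Percent of cells with at least 1 UMI of each gene after thinning to 3000 UMIs per cell, 1 point per library with its exact binomial 95% interval, in the LMC gate (left) and VSMC gate (right). In TNF-Tg, Mmp3 reached 42.1 and 82.7% and Timp1 39.5 and 72.7%, above the other 3 libraries, while Mmp14 and Timp3 were lowest in TNF-Tg.

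The stromal gates were compared with each other over the 4 libraries. The test was the quasi-likelihood test of edgeR on summed UMIs with the library as a block, and a Benjamini-Hochberg adjusted p under 0.01 was counted as a call. Both gates were cut from the same cells with other genes, so the p-values describe how steady a difference was over 4 libraries. Of 12038 genes, 5.72% were called higher in the LMC gate and 6.94% higher in the VSMC gate.

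Of the 9 members, 2 were called higher in the LMC gate and 2 higher in the VSMC gate. Mmp3 was lower in the LMC gate by a log2 difference of −2.14 (SE 0.16, edgeR adjusted p = 2.7e-06), in 4 of 4 libraries. Timp1 was lower there by −2.30 (SE 0.30, edgeR adjusted p = 1.9e-04), also in 4 of 4 libraries. Adamts5 was higher in the LMC gate by 1.18 (SE 0.22, edgeR adjusted p = 0.0024) and Timp3 by 0.76 (SE 0.12, edgeR adjusted p = 0.0010). Adamts5 and Timp3 were also higher in 4 of 4 libraries, by the levels given above. Both members called higher in the VSMC gate were thus the ones that exceeded 2-fold in TNF-Tg in both gates, a comparison that draws on the same WT and TNF-Tg sums.

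The other 5 members were not called. Their log2 differences were 0.06 for Mmp2, 0.36 for Mmp14, −0.40 for Mmp19, −0.25 for Adamts1 and 0.39 for Timp2, with edgeR adjusted p between 0.027 and 0.77. Without the block for library, the 4 calls among the members were lost, at log2 differences of −1.96 for Mmp3, −1.67 for Timp1, 1.22 for Adamts5 and 0.80 for Timp3.

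The balance of both groups was taken as the ratio of summed UMIs of the 6 proteases to those of the 3 inhibitors. This ratio does not weigh which inhibitor acts on which protease. Its value in the LMC gate was 0.688 in tdT1, 0.469 in tdT2, 0.611 for WT and 0.916 for TNF-Tg. Ratios in the VSMC gate were 1.05, 0.928, 0.501 and 1.14. TNF-Tg had the highest ratio in both gates, but in the VSMC gate it was near both tdT libraries, and WT was the library that stood apart. The log2 change from WT to TNF-Tg was 0.58 (counting interval 0.55 to 0.61) in the LMC gate and 1.19 (1.15 to 1.23) in the VSMC gate.

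This ratio rested on single abundant genes. Timp2 made up 87.3% of the inhibitor UMIs of WT and 76.5% of those of TNF-Tg in the LMC gate, and 87.8 and 62.8% in the VSMC gate. Mmp3 made up 4.94 and 21.5% of the protease UMIs in the LMC gate and 27.4 and 59.1% in the VSMC gate. Timp1 grew from 0.429 to 10.8% of the inhibitor UMIs in the LMC gate and from 3.85 to 30.5% in the VSMC gate. With Timp2 left out, the order of WT and TNF-Tg turned: the ratio was 4.81 for WT and 3.89 for TNF-Tg in the LMC gate, and 4.09 and 3.07 in the VSMC gate. For tdT1 and tdT2 it was 3.08 and 1.65 in the LMC gate, and 4.73 and 3.435 in the VSMC gate. TNF-Tg was thus above both tdT libraries in the LMC gate, where WT was highest, and the lowest library in the VSMC gate. With Mmp3 left out, the log2 change was 0.31 and 0.36. Without the cells with a Prg4 UMI it was −0.042 in the LMC gate and 1.16 in the VSMC gate.

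**Figure D4:**
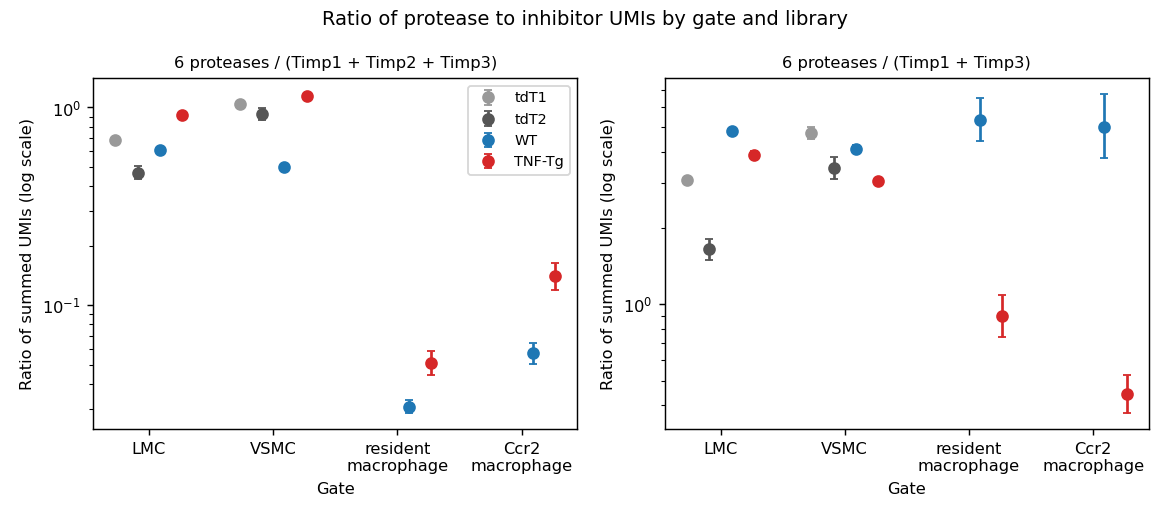
Ratio of summed protease UMIs to summed inhibitor UMIs (log axis) by gate and library with 95% counting intervals, with all 3 inhibitors (left) and without Timp2 (right). TNF-Tg was above WT in all 4 gates on the left and below it in all 4 on the right. The tdT libraries are drawn for the stromal gates, since they held few macrophages.

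In the macrophage gates of WT and TNF-Tg, 4 members (Timp2, Timp1, Mmp19 and, in TNF-Tg, Mmp14) were well above the level that stray stromal RNA would give, and the others were near it. The resident macrophage gate (Lyve1, Cd209f, Cd209d, Cd163, Folr2 and Pf4) held 1030 WT and 248 TNF-Tg cells. The Ccr2 macrophage gate (Ccr2, H2-Aa, H2-Eb1, Fcgr1, Adgre1 and C1qc) held 619 and 270 cells. The tdT libraries held between 10 and 39 cells in each of these gates. The stromal level was estimated per library from the UMIs of Col1a1, Col1a2, Col3a1 and Dcn, which summed to 122 and 73.6 CPM in the resident gate and 113 and 44.0 CPM in the Ccr2 gate (WT and TNF-Tg). These genes also helped to set the leukocyte gates, which left out cells with much stromal RNA, so the estimate may be too low.

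Timp2 was the main member in both macrophage gates. The resident gate held 1075 CPM in tdT1, 1231 in tdT2, 1664 for WT and 1359.5 for TNF-Tg, and the Ccr2 gate 399, 379, 683 and 229 CPM. The stromal estimate was 158 of the 21342 Timp2 UMIs in the resident gate of WT and 12.3 of 910 in the Ccr2 gate of TNF-Tg. The log2 ratio of TNF-Tg to WT was −0.29 (−0.34 to −0.24) in the resident gate and −1.58 (−1.68 to −1.48) in the Ccr2 gate.

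Timp2 separated the macrophage gates by the edgeR test over tdT2, WT and TNF-Tg. It was higher in the resident gate by a log2 difference of 1.75 (SE 0.25, edgeR adjusted p = 1.7e-05), in 3 of 3 libraries. Of 10216 genes, 4.55% were called higher in the resident gate and 4.3% higher in the Ccr2 gate. Timp2 was the 1 call among the 6 members that passed the filter on low counts, and Adamts1, Adamts5 and Timp3 did not pass it. The other 5 had edgeR adjusted p between 0.21 and 0.68. Without the block for library, and with classes from clusters in place of gates, the call was lost at log2 differences of 1.62 and 1.73.

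Timp1 was also higher in TNF-Tg than in WT in both macrophage gates. The resident gate held 7.41 CPM in WT (95 UMIs) and 80.2 in TNF-Tg (229 UMIs), a log2 ratio of 3.44 (3.09 to 3.80). The Ccr2 gate held 5.76 CPM in WT (43 UMIs) and 106 in TNF-Tg (421 UMIs), a log2 ratio of 4.20 (3.74 to 4.69). The tdT libraries had no Timp1 UMI in either gate. The stromal estimate for TNF-Tg was 4.08 UMIs in the resident gate and 3.40 in the Ccr2 gate, far under the UMIs counted.

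At 3000 UMIs per cell, Timp1 was found in 2.22% of WT and 12.9% of TNF-Tg cells of the resident gate, and in 1.19 and 15.6% of the Ccr2 gate. Without thinning the shares were 7.57 and 33.9%, and 5.01 and 37.8%. T cells had no Timp1 UMI in either library (65 and 75 cells), which allows shares of up to 4.62 and 4.0%. Timp1 was also 3.70 CPM in WT and 176 in TNF-Tg in a gate of Cd209a dendritic cells (91 and 129 cells, 5 and 293 UMIs). In the inflammatory monocyte gate it was low, at 0 of 553532 UMIs in WT and 6.47 CPM in TNF-Tg. Of that gate, 0 of 49 WT cells fell in a cluster where it held most cells, against 410 of 480 in TNF-Tg. Clusters were made within each library, so these counts cannot show whether both groups hold the same kind of cell.

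Mmp19 in macrophages was near its stromal level and did not differ between the libraries beyond counting error. The resident gate held 40.9 CPM in WT and 44.9 in TNF-Tg, and the Ccr2 gate 28.3 and 28.1 CPM. The log2 ratios were 0.13 (−0.16 to 0.41) and −0.01 (−0.35 to 0.33). The stromal estimate was at most 1.59 UMIs of the 112 to 525 counted. In neutrophils Mmp19 stood at 1.54 and 1.42 CPM.

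Mmp14 was higher in TNF-Tg in both macrophage gates, the opposite direction to the stroma. The resident gate held 18 UMIs (1.40 CPM) in WT and 44 UMIs (15.4 CPM) in TNF-Tg, with a log2 ratio of 3.46 (2.64 to 4.34). The Ccr2 gate held 20 UMIs (2.68 CPM) and 53 UMIs (13.3 CPM), with a log2 ratio of 2.31 (1.55 to 3.13). The stromal estimate was 1.30 and 1.09 UMIs in TNF-Tg and 14.1 and 7.66 UMIs in WT. These levels were low: in the Ccr2 gate tdT1 had 11 UMIs (47.7 CPM), and T cells of TNF-Tg had 8 UMIs (15.5 CPM, interval 6.67 to 30.5), which overlaps both macrophage gates.

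The remaining members were near background in the macrophages of WT and TNF-Tg. Mmp2, Mmp3, Adamts1, Adamts5 and Timp3 had between 1 and 61 UMIs in each macrophage gate of WT and TNF-Tg. Their stromal estimates ranged from 32.3 to 253% of the UMIs counted. Mmp3 stood at 9.46 CPM in the resident gate of TNF-Tg, against 9.91 CPM in its neutrophils and 9.66 CPM in its T cells. The Ccr2 gate of tdT1 stood apart with 26 Mmp2 UMIs in 23 cells (112.6 CPM, interval 73.6 to 165), where 6 stromal genes summed to 325 CPM.

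By the 2-fold rule, Timp1 was higher in TNF-Tg in the resident macrophage gate and Timp2 was lower in the Ccr2 gate. In the resident gate 3.68% of all 9694 genes were higher and 4.48% lower, with a median log2 ratio of 0.05. In the Ccr2 gate 4.47% of 9076 genes were higher and 12.3% lower, with a median of −0.16. Mmp14 in both gates and Timp1 in the Ccr2 gate (43 UMIs in WT) were also past 2-fold. They reached the minimum of 50 UMIs only through TNF-Tg, where they were high, so no count of members is drawn from them. Mmp3, Adamts1, Adamts5 and Timp3 were under that minimum in both gates, and Mmp2 in the Ccr2 gate.

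The protease to inhibitor ratio of WT and TNF-Tg was far lower in macrophages than in the stromal gates. It was 0.0307 in WT and 0.0513 in TNF-Tg in the resident gate, and 0.0572 and 0.140 in the Ccr2 gate. The 23 tdT1 cells of the Ccr2 gate were an exception, at 0.430 (0.289 to 0.629), which is close to tdT2 in the LMC gate. Timp2 again made up most of the inhibitor UMIs of WT and TNF-Tg. Without Timp2 the ratio was 5.32 in WT and 0.898 in TNF-Tg in the resident gate, and 5.0 and 0.443 in the Ccr2 gate. Mmp14, with few UMIs, made up 2.73% (WT) and 20.9% (TNF-Tg) of the protease UMIs in the resident gate. In the Ccr2 gate these shares were 6.78 and 28.3%. The change from WT to TNF-Tg moved in both gates with Mmp14 left out.

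**Figure D5:**
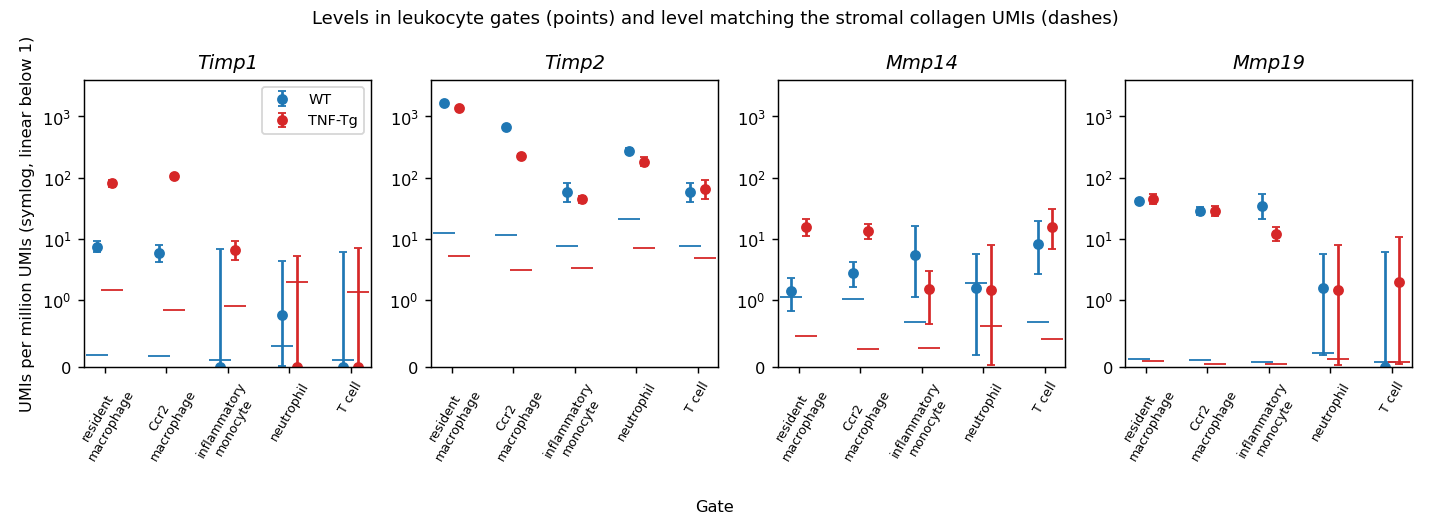
Level of 4 members in 5 leukocyte gates of WT (blue) and TNF-Tg (red) in CPM with 95% Poisson intervals, on an axis that is linear below 1 and logarithmic above. Short dashes give the level that the stromal collagen UMIs in each gate would bring along. Timp1 in both macrophage gates was above its dash, with 80.2 and 106 CPM in TNF-Tg, while Mmp14 overlapped the T cell gate.

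Each member was also ranked over all gates with at least 20 cells, leaving out cells that fell between the LMC and VSMC gates. Mmp2, Mmp14, Adamts1, Adamts5 and Timp3 had their highest level in the LMC gate in WT and in TNF-Tg, and the VSMC gate was next. The 159 WT cells between both gates were higher than the LMC gate for Mmp2 (1083 CPM), Mmp14 (416 CPM) and Adamts1 (114 CPM). For Mmp2 these neighbours were close, at 977 and 927 CPM in WT with intervals 964 to 989 and 906 to 949. Mmp3 and Timp1 were highest in the VSMC gate in both libraries. Timp2 was highest in the VSMC gate in WT (4062 CPM, with 4009 in the LMC gate) and in the LMC gate in TNF-Tg. Mmp19 alone had its highest value in a leukocyte gate, with an interval that overlapped that of the VSMC gate in both libraries. In WT this was the Ear2 phagocyte gate (48.8 CPM, interval 42.8 to 55.3), next to the VSMC gate at 47.2 CPM (42.5 to 52.3). In TNF-Tg it was the resident macrophage gate (44.9 CPM, 37.4 to 53.3), next to the VSMC gate at 39.4 CPM (34.5 to 44.8).

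Genes with the most similar pattern were sought over 31 sums of a gate and library, by Pearson's r of log2(CPM + 1) among genes with a mean of at least 10 CPM. The sums share libraries and depth, so r is a description. For Mmp3 they were Serpinh1, a collagen chaperone (r = 0.957), Chrdl1, a BMP antagonist (0.952), and Sfrp4, a Wnt antagonist (0.949). For Adamts5 they were Pdgfra, a growth factor receptor of fibroblasts (0.985), Sdc2, a cell-surface proteoglycan (0.985), and Arhgap20 (0.982). For Timp1 the likeness was weaker: Ccl19, a chemokine (0.773), Prg4 (0.766) and Pdpn, podoplanin (0.765).

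A wider list of 64 other protease, inhibitor and related genes (further metalloproteinases, ADAMTS and ADAM proteases, serine proteases, cathepsins and other inhibitors) set these members in context. Among the related genes were the receptor Plaur, the enhancer Pcolce and the ADAMTS-like genes Adamtsl4 and Adamtsl5. In the LMC gate, 40 passed the UMI minimum, with 2 higher and 2 lower in TNF-Tg by 2-fold and a median log2 ratio of −0.16. In the VSMC gate, 35 passed, with 2 higher, 1 lower and a median of −0.48. Both lists are to be read against the shares of all genes given above.

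Adamts15, another aggrecan-cutting protease, was higher in TNF-Tg in both stromal gates: 7.18 against 46.5 CPM in the LMC gate (WT and TNF-Tg, log2 2.69, interval 2.42 to 2.97) and 22.8 against 48.2 CPM in the VSMC gate (log2 1.08). Plaur, the urokinase receptor, was the other one, at log2 1.20 and 1.62. Those lower were Mmp9 (log2 −2.34) and Ctss (−1.14) in the LMC gate and Adamts12 (−1.04) in the VSMC gate. Mmp9 and Ctss are known from leukocytes, and 6 leukocyte genes summed to 162 CPM in WT and 125 in TNF-Tg in the LMC gate. The part of leukocyte RNA in both values was not tested.

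In the resident macrophage gate, 23 of the 64 passed, with a median log2 ratio of −0.07. Plau, the urokinase, was higher in TNF-Tg (21.4 against 66.6 CPM, log2 1.63), as was Adamtsl5 (log2 1.12), and the inhibitor Serping1 (−1.49) and Adamtsl4 (−1.42) were lower. In the Ccr2 gate, 20 passed, with a median of −0.41. Adam8 was higher (log2 1.06), and Mmp9 (−1.54), Adamts10 (−1.71), Adam19 (−1.36), Serping1 (−1.30) and Pcolce (−1.38), an enhancer of procollagen processing, were lower. Of all genes, 3.68% were higher and 4.48% lower in the resident gate, and 4.47 and 12.3% in the Ccr2 gate. The minimum of 50 UMIs counted both libraries together, so a listed gene could pass it through 1 library alone. Among cathepsins, 0 of 6 and 0 of 5 tested passed 2-fold in these gates. The stromal genes used to estimate stray RNA were also lower in TNF-Tg. Col1a1, Col1a2, Col3a1 and Dcn summed to 122 CPM in WT and 73.6 in TNF-Tg in the resident gate. In the Ccr2 gate they summed to 113 and 44.0 CPM. The part of stray stromal RNA in the lower values of Pcolce, Serping1 and the other listed genes was not tested.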

How the data were processed

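The authors deposited UMI counts per gene and cell, made with Cell Ranger (3.1.0 for tdT1 and 6.0.1 for the others, per the file headers) against mm10 and limited to called cells, without normalization. Counting against a shared 3′ gene model can split UMIs between overlapping genes. Cells were gated by marker genes: stromal cells had at least 20 stromal UMIs per 10000 and a log2 ratio to leukocyte genes of at least 2, leukocytes at least 5 per 10000 and a ratio of at most −1. Doublets were called with Scrublet in scanpy 1.11.5 (138 in WT, 72 in TNF-Tg) and removed in an alternative only. UMIs were summed per gate and library and scaled to CPM (counts per 1000000 UMIs). Intervals were exact Poisson, Clopper-Pearson or conditional binomial at 95%, and a floor of 3 counts stood for 0. Gates were compared with edgeR 4.0.16 (TMM, filterByExpr, library block) in R 4.3.3, with DESeq2 1.42.0 as an alternative. The fit was tested on simulated data.

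The 9 genes were named as a set, and the lists and gates chosen, with earlier results of these data known. Other genes are named where they passed 2-fold with at least 50 UMIs, up to 10 per gate. The alternatives on stromal marker rules, on Prg4 and on leaving libraries out of the 2-fold rule were chosen after seeing the data. Positions are from GENCODE vM21 (GRCm38), and promoters from RefSeq.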

Additional observations from a re-analysis of the deposited data

Results flagged for a closer look

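Mmp14 and Adamts5 had TNF-Tg to WT ratios of opposite sign in different gates, each with a counting interval that left out 0. The difference between gates was not tested, since each condition had 1 library. Mmp14 had a log2 ratio of −0.58 in the LMC gate and −1.35 in the VSMC gate, against 3.46 in the resident macrophage gate and 2.31 in the Ccr2 macrophage gate. The macrophage values rest on 18 to 53 UMIs per library and passed the minimum of 50 only through TNF-Tg. Adamts5 had −0.21 in the LMC gate and 0.35 in the VSMC gate, both within 2-fold.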

How the results depend on the processing

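Mmp3 and Timp1 stayed 2-fold higher in TNF-Tg than in WT in both stromal gates under each alternative run. The counts of members that were lower were less stable. In the VSMC gate, 3 members were lower by 2-fold, against 1 with TMM factors and 0 without cells with a Prg4 UMI. With a fold of 1.5, 1 member rather than 0 was lower in the LMC gate and in the resident macrophage gate. TNF-Tg was 2-fold below the other 3 libraries in the VSMC gate for 2 members. That count was 1 without predicted doublets, with Leiden clusters, with stromal gates 1.5 apart and with TMM factors, and 0 without Prg4 cells. On the high side the VSMC count went from 2 to 1 without Prg4 cells. In the LMC gate, leaving out a library gave 0 to 1 members below, the 1 being Timp3 without WT, and 2 to 3 members above, the added one being Adamts1 without tdT1.

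The log2 change of the protease to inhibitor ratio in the LMC gate (0.58) was 0.61 with Leiden clusters, 0.62 with the first 3 markers, 0.31 with gates 1.5 apart and −0.042 without Prg4 cells. With 1 gene left out it was 0.75 (Mmp2), 0.31 (Mmp3), 0.66 (Mmp14), 0.52 (Adamts1), 0.76 (Adamts5), 0.74 (Timp1) and −0.31 (Timp2). In the VSMC gate (1.19) it was 1.31 with the first 3 markers, and 1.58 (Mmp2), 0.36 (Mmp3), 1.34 (Mmp14), 1.65 (Timp1) and −0.42 (Timp2) with that gene left out. Without Timp2 the resident and Ccr2 macrophage gates gave −2.57 and −3.50. Adamts1 in the LMC gate turned from 1.08 to −0.24 without Prg4 cells. The cause of these shifts was not tested.

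The LMC and VSMC gates differed in 1524 genes by edgeR, in 265 without the library block and in 932 (without WT) to 1381 when a library was left out. The macrophage gates differed in 904 genes, in 103 without the block, in 483 by DESeq2 and in 580 (without TNF-Tg) to 666 when a library was left out. With Leiden clusters, which left 2 libraries with enough cells, edgeR called 0 macrophage genes, with 2087 at an unadjusted p under 0.05. Timp2 was called higher in the LMC than the VSMC gate, at log2 0.42, only with no filter on low counts. Low UMI counts limit Mmp14 in macrophages, and 1 library per genotype limits every ratio of TNF-Tg to WT.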

Other observations

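Among the smaller leukocyte gates, Timp2 in Cd209a dendritic cells stood at 39.2 CPM in WT (53 UMIs) and 8.42 CPM in TNF-Tg (14 UMIs), while Timp1 in the same gate went the other way. Patrolling monocytes, of which WT held 6 and TNF-Tg 254, had Mmp14 at 25.0 CPM in TNF-Tg (57 UMIs, interval 19.0 to 32.4). Mmp19 in inflammatory monocytes stood at 34.3 CPM in WT (19 UMIs) and 12.01 CPM in TNF-Tg (65 UMIs), with intervals of 20.7 to 53.6 and 9.27 to 15.3. Of this gate, 0 of 49 WT and 410 of 480 TNF-Tg cells lay in a cluster where it held most cells. Clusters were made within each library, and whether both groups hold the same kind of cell was not tested.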
